A study of Mus musculus with 43 samples.

Results

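Mir204 and Mir211 are the mouse genes of miR-204 and miR-211, a pair of microRNAs (miRNAs) with the same seed. They were selected on the counts of Mir204 in epididymal fluid of the corpus, which were higher in Rnase9-12 KO than in WT mice. That comparison is therefore given below as a description without a test, and the levels in the other fluids, in epididymis tissue and in sperm were tested where the counts allowed it. Their entries, Mir204-201 and Mir211-201, were 2 of the 4890 RNAs listed for tissue, and Mir204-201 alone was among the 3178 listed for fluid and the 4323 listed for sperm.

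The counts came from small RNA-seq of male FVB mice aged 8 to 12 weeks, in which loss of the RNase A family genes Rnase9, Rnase10, Rnase11 and Rnase12 was examined for its effect on the small RNAs of the epididymis and sperm. KO mice were homozygous for a CRISPR/Cas9 deletion of the cluster that holds these 4 genes, and WT mice carried the intact cluster. Tissue was represented by 3 WT and 3 KO libraries of the caput (the first segment of the duct), 3 WT and 2 KO libraries of the corpus (the middle segment) and 3 WT and 3 KO libraries of the cauda (the last segment, where sperm are stored), all made with ARM-seq. Fluid was represented by 3 WT and 3 KO libraries of each segment, and cauda sperm by 4 WT and 4 KO libraries, all made with OTTR-seq from RNA pooled over 3 mice. Fluid was what remained of the luminal content after sperm, cell debris and extracellular vesicles had been spun out. The genotype could not be checked in these small RNA tables.

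MiRNAs are cut from hairpin precursors, and the mature strand guides Argonaute proteins to messenger RNAs that pair with its seed. MiR-204 is best known from the retinal pigment epithelium, the lens and the choroid plexus, and miR-211 from melanocytes. Each lies in an intron of a gene for a TRPM cation channel. In the male tract, small RNAs of the epididymal epithelium and lumen are studied because sperm change their RNA content as they pass from the caput to the cauda.

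The mature strands from the 5′ arms are shown because they explain why both genes are described together and how far reads of the 2 genes can be told apart. Sequences are from RefSeq (GRCm38), written 5′ to 3′, and capitals mark the seed, bases 2 to 8.
miR-204-5p: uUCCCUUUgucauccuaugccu
miR-211-5p: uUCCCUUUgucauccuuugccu
miR-7670-3p: uUCCCUUUcugaauaucuguaga

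MiR-204-5p and miR-211-5p were identical at 21 of 22 bases. Their single difference was A17U, counted from the 5′ end of miR-204-5p, so their first 16 bases were the same and a read that stopped before the differing base would match both. Of 1679 mature mouse miRNAs in the reference table, 3 held this seed, and the remaining member was miR-7670-3p. Mir7670 was listed for tissue alone, with a highest count of 5 in any library. The strands from the 3′ arms were less alike and had different seeds, again in capitals.
miR-204-3p: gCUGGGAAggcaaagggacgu
miR-211-3p: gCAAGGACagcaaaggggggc

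Mir204 lies on the plus strand of chr19:22750605-22750672 (GRCm38, the assembly also called mm10, which the study used). This is intron 6 of Trpm3-201, and the hairpin was intronic in all 18 annotated Trpm3 transcripts that span it. Mir211 lies on the plus strand of chr7:64205806-64205911, in intron 6 of Trpm1-201, and was intronic in all 12 Trpm1 transcripts that span it. The deposited counts are per gene, so the mature arms, the hairpin and its trimmed forms were counted together. The hairpins are shown with the 5p strand in capitals, because a count in this report may come from any of their bases.
Mir204 hairpin: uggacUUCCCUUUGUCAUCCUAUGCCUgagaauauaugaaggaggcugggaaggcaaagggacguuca
Mir211 hairpin: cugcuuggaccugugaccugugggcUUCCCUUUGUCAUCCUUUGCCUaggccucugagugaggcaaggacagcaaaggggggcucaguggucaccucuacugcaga

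Tissue libraries held 30142156 to 249732714 counts, fluid libraries 1948718 to 12320922 and sperm libraries 1134840 to 62128314. MiRNAs were a small part of these totals, 0.0219 to 0.0618% in tissue, 0.130 to 0.812% in fluid and 0.0386 to 0.168% in sperm, and tRNA and rRNA fragments took most of the rest. Levels are given as counts-per-million (CPM) after TMM scaling. The section tag of the 6 caput fluid libraries and of 1 WT caput tissue library named the cauda, whereas their titles named the caput, and the titles were used. The miRNA lists went with the titles: the summed level of 15 germ line miRNAs was 3.67 to 8.00 CPM in these fluid libraries against 25.3 to 75.6 CPM in cauda fluid, and the smooth muscle pair Mir143 and Mir145a summed to 20.6 to 40.3 CPM in WT caput tissue against 108 to 215 CPM in WT cauda tissue.

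In epididymal fluid, Mir204 was highest in the caput and lowest in the cauda in both genotypes. WT caput fluid held 48.2, 30.4 and 35.9 CPM of Mir204 in its 3 libraries (counts of 362, 174 and 240). KO caput fluid held 77.8, 72.3 and 89.2 CPM (counts of 826, 878 and 659). The lowest KO library was above the highest WT library in the caput.

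WT corpus fluid held 5.38, 6.03 and 7.25 CPM (counts of 36, 64 and 36). KO corpus fluid held 28.1, 45.4 and 45.6 CPM (counts of 70, 168 and 110). All KO corpus libraries lay far above all WT corpus libraries, and their range overlapped that of WT caput fluid, whereas WT corpus fluid was close to cauda fluid.

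WT cauda fluid held 4.23, 5.81 and 3.06 CPM (counts of 46, 66 and 18), and KO cauda fluid held 6.96, 11.2 and 5.66 CPM (counts of 99, 87 and 34). The genotypes overlapped in the cauda, where the lowest KO library was just under the highest WT library. Ordered by their means, the fluid groups were KO caput (79.7 ± 8.61 CPM, SD, n = 3), KO corpus (39.7 ± 10.05), WT caput (38.2 ± 9.08), KO cauda (7.95 ± 2.91), WT corpus (6.22 ± 0.951) and WT cauda (4.37 ± 1.38). KO corpus and WT caput were neighbours whose libraries overlapped, and so were KO cauda and WT corpus, and WT corpus and WT cauda.

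**Figure D1:**
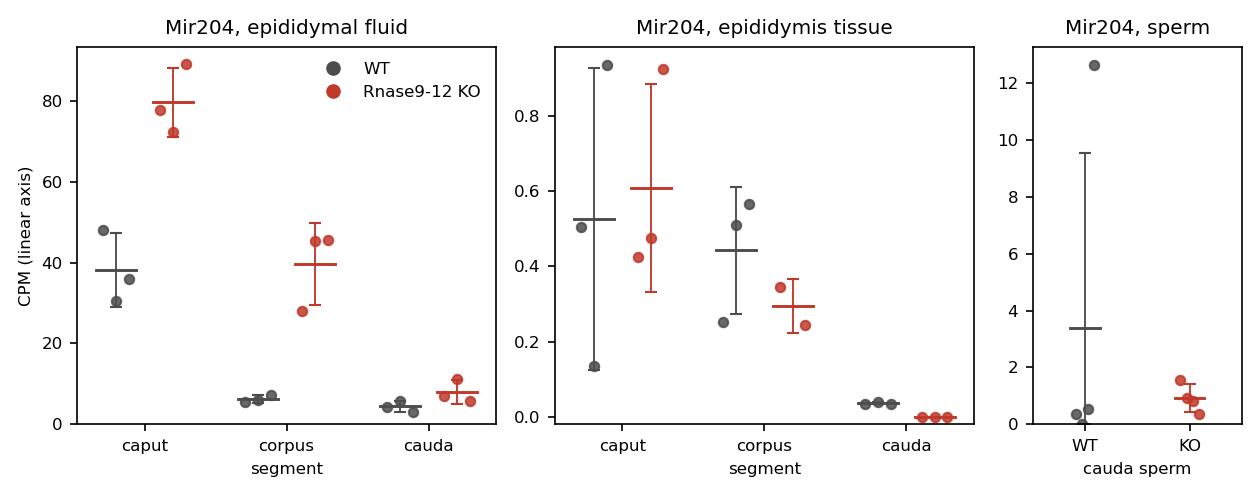
Mir204 level in CPM on linear axes (a separate axis for each panel) in every library of epididymal fluid, epididymis tissue and cauda sperm. Points are libraries in order of replicate number, horizontal lines are group means and whiskers are SD, stopped at 0. KO corpus fluid lay between 28.1 and 45.6 CPM and WT corpus fluid between 5.38 and 7.25 CPM, all 3 KO cauda tissue libraries were at 0, and WT sperm replicate 4 stood at 12.6 CPM.

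In corpus fluid, the values used to choose the gene, Mir204 was 6.39-fold higher in KO (log2 fold change 2.68 ± 0.41, SE). An RNA is termed called where edgeR's quasi-likelihood test gave a Benjamini-Hochberg adjusted p below 0.05 and the log2 fold change was larger than 1 in size. In this comparison 19.7% of the 2023 RNAs tested were called, and 20.4% had all KO libraries above all WT libraries. Of the 232 miRNAs tested, 55 were called higher in KO and 0 lower (3 were lower at an unadjusted p under 0.05 in edgeR), and their median log2 fold change was 1.07, against 0.10 over all RNAs. The median of the miRNAs depended on the scaling and was 0.22 with TMM factors from RNAs other than tRNA and rRNA fragments and 0.02 with miRNA counts as the library size, where the calls over all RNAs turned from 273 higher and 126 lower to 144 and 526 and to 72 and 416. Mir204 stood above 217 of the 231 other miRNAs.

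The share of miRNAs in the library moved with the genotype in the same fluid. MiRNAs took 0.205, 0.243 and 0.353% of the counts in WT corpus fluid and 0.374, 0.526 and 0.812% in KO corpus fluid. These are shares of counts, where a read with several equally good matches counts at each. They are not the shares of reads given by the study, which used a single match per read. Scaled to the miRNA counts alone (counts-per-million miRNA counts, here miRNA CPM), Mir204 was at 2597, 2594 and 2557 miRNA CPM in WT and at 7556, 9472 and 6951 miRNA CPM in KO. The KO libraries were above the WT libraries on this scale too, but these are the libraries used to choose the gene. The share of RNAs without overlap was not computed on this scale. With miRNA counts as the library size the log2 fold change of Mir204 was 1.63, and with TMM factors from RNAs other than tRNA and rRNA fragments it was 1.81. Relative to the median miRNA, Mir204 was higher by 1.601 on the log2 scale in the main scaling and by 1.61 when scaled to miRNA counts. The part of the miRNA share in the difference was not tested.

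**Figure D2:**
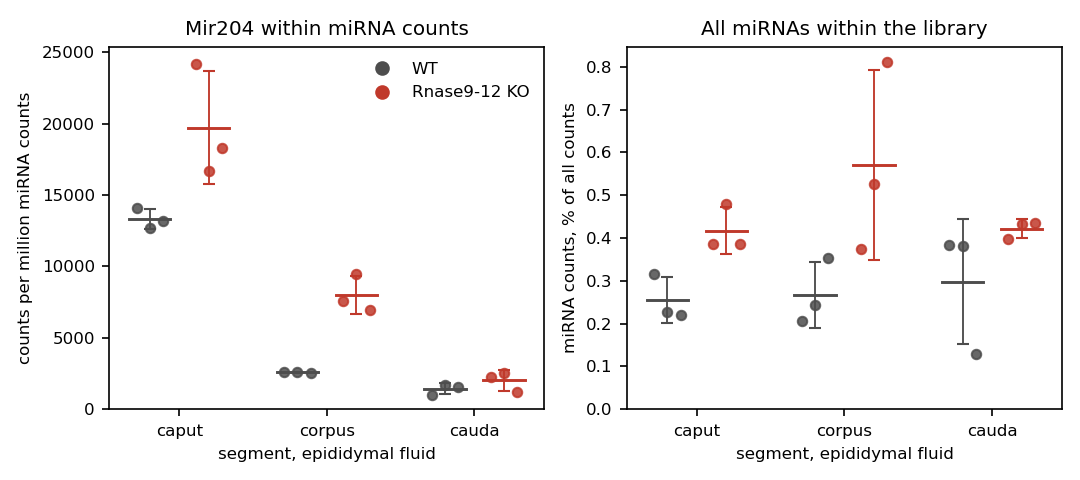
Left, Mir204 in miRNA CPM (counts-per-million within the miRNA counts), and right, all miRNA counts as a percentage of all counts, in each fluid library by segment and genotype. Points are libraries, lines are means and whiskers are SD. In corpus fluid Mir204 was at 2557 to 2597 miRNA CPM in WT and at 6951 to 9472 in KO, and miRNAs took 0.205 to 0.353% of the counts in WT and 0.374 to 0.812% in KO.

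In caput fluid, which was not used to choose the gene, Mir204 was 1.06 ± 0.38 (SE) higher in KO on the log2 scale, with a 95% interval of 0.27 to 1.85. The difference did not pass edgeR's quasi-likelihood test after Benjamini-Hochberg adjustment (adjusted p = 0.278, unadjusted p = 0.0107), although the groups did not overlap, which held for 13.3% of the RNAs tested in this direction. No RNA was called in this comparison (0%), with 110 higher and 104 lower at an unadjusted p under 0.05 and 9 higher and 2 lower called by DESeq2. MiRNAs as a class had a median log2 fold change of 0.48, 196 of the 232 were above 0, and Mir204 stood above 195 of the 231 others. The miRNA share of the counts was 0.220 to 0.317% in WT and 0.385 to 0.480% in KO caput fluid, and Mir204 ran from 12655 to 14084 miRNA CPM in WT and from 16711 to 24209 miRNA CPM in KO. Scaled to miRNA counts, its log2 fold change in caput fluid was 0.57 and the median of the miRNAs was -0.059.

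In cauda fluid, Mir204 was 0.85 ± 0.39 (SE) higher in KO on the log2 scale (95% interval 0.03 to 1.67) and did not pass the test (adjusted p = 0.514, unadjusted p = 0.0423). No RNA was called there by edgeR (0%), with 131 higher and 57 lower at an unadjusted p under 0.05, and DESeq2 called 26 higher and 9 lower. Mir204 stood above 225 of the 231 other miRNAs, whose median with it was 0.13 (-0.16 when scaled to miRNA counts). The KO effect in the cauda differed from that in the caput by -0.21 ± 0.55 (SE) on the log2 scale, with a 95% interval of -1.35 to 0.93 (adjusted p = 0.888, the interaction term in edgeR), so a difference between the 2 segments was not detected within that interval. The comparisons of the 3 fluids do not share libraries, but they come from the same fit with a shared estimate of the spread. Whether the same mice gave the fluids of the 3 segments is not stated.

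**Figure D3:**
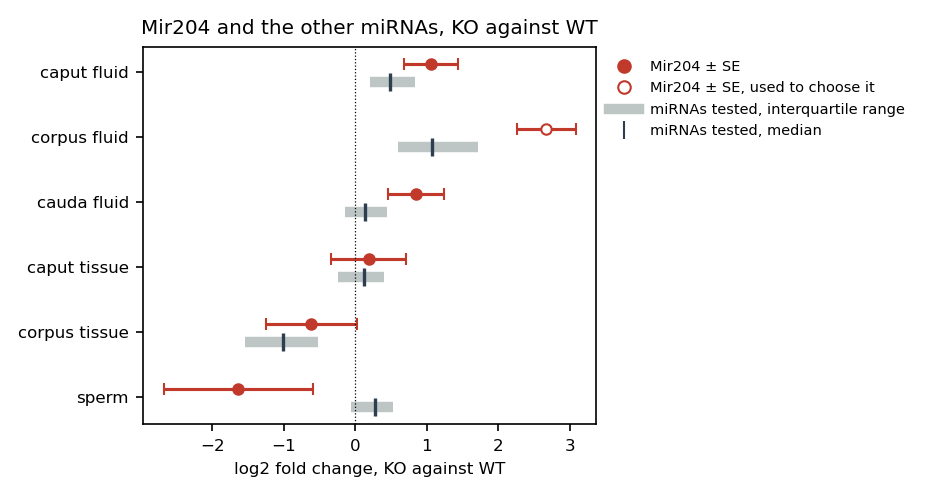
Log2 fold change of Mir204 in KO against WT with its SE (circles) beside the median and interquartile range of all miRNAs tested in the same libraries (ticks and grey bars). The open circle is corpus fluid, whose value was used to choose the gene. Mir204 was at 1.06, 2.68 and 0.85 in caput, corpus and cauda fluid, where the miRNA medians were 0.48, 1.07 and 0.13. Cauda tissue is not drawn because all its KO libraries were at 0.

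MiRNAs that mark cell types were compared beside these levels. In caput fluid, the 10 listed epithelial miRNAs (the miR-200 and miR-183 families, Mir205 and Mir203) summed to 126 to 208 CPM in WT and to 274 to 349 CPM in KO. In corpus fluid they summed to 35.8 to 81.4 CPM in WT and to 109 to 167 CPM in KO. The summed epithelial list thus did not overlap between the genotypes in either fluid, and 0 of its 10 members were called (median log2 fold change 0.67 in caput and 1.07 in corpus fluid). The medians of all miRNAs tested were 0.48 and 1.07 in these fluids. All KO libraries were above all WT libraries for 13.3% of all RNAs in caput and 20.4% in corpus fluid.

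Also in corpus fluid, the endothelial miRNA Mir126a was at 9.41 to 22.4 CPM in WT and at 25.7 to 73.8 CPM in KO and was the 1 member of its list called. The 5 striated muscle miRNAs listed summed to 7.02 to 9.46 CPM in WT and to 11.3 to 44.7 CPM in KO, with 2 of the 4 that passed the filter called. The 8 neural and neuroendocrine miRNAs summed to 2.54 to 3.43 CPM in WT and to 4.14 to 8.37 CPM in KO, with 0 of 5 called. The 7 blood miRNAs (33.7 to 70.6 CPM in WT and 38.9 to 203 CPM in KO, 2 of 5 called), the smooth muscle pair (90.6 to 168 and 127 to 267 CPM, 0 of 2) and the 15 germ line and multiciliated cell miRNAs (8.66 to 28.6 and 26.1 to 43.2 CPM, 0 of 14) overlapped between the genotypes. These calls in corpus fluid are a description under the main scaling alone, where 19.7% of the 2023 RNAs and 55 of the 232 miRNAs were called. With miRNA counts as the library size, the calls over all RNAs were 72 higher and 416 lower. No listed marker was at 0 in every WT corpus library, and Mir128-2 alone was at 0 in every KO corpus library. In caput fluid the germ line list (3.67 to 5.54 CPM in WT and 5.60 to 8.00 CPM in KO) and the neural list (10.5 to 11.8 and 13.0 to 25.03 CPM) also did not overlap between the genotypes, the other lists overlapped, and 0 members of any list were called. The part of these lists in the Mir204 difference was not tested.

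Along the duct, Mir204 fell from caput to cauda fluid in both genotypes. It was 8.64-fold lower in WT cauda than in WT caput fluid (log2 fold change -3.11 ± 0.41, SE, adjusted p = 3.15e-05). It was 10.01-fold lower in KO cauda than in KO caput fluid (-3.32 ± 0.41, adjusted p = 0.000106). These comparisons called 25.1% and 26% of the RNAs tested, and all cauda libraries were below all caput libraries for 26.6% and 25.4% of them.

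The neural and neuroendocrine list moved in the same direction as Mir204 along the fluid. Its 8 miRNAs summed to 10.5 to 11.8 CPM in WT caput and to 2.89 to 8.01 CPM in WT cauda fluid, and to 13.0 to 25.03 CPM in KO caput and to 3.48 to 4.57 CPM in KO cauda fluid, without overlap in either genotype. Of the 5 that passed the filter, 1 was called lower in WT (Mir375, median log2 fold change of the list -1.04) and 4 in KO (Mir375 and the 3 Mir9 genes, which give the same mature 5p strand, median -3.16), and 0 of 5 were called for the difference between the genotypes. The epithelial list summed to 93.7 to 153 CPM in WT cauda, which overlapped WT caput fluid, and to 94.4 to 226 CPM in KO cauda, which did not overlap KO caput fluid, with 1 of 10 called lower in each genotype. The germ line and multiciliated list rose, to 34.9 to 75.6 CPM in WT cauda and to 25.3 to 73.3 CPM in KO cauda fluid, with 11 of 14 called higher in WT and 12 of 14 in KO. In the remaining lists 0 members were called lower, and 1 of 5 blood miRNAs was called higher in WT. The part of these lists in the fall of Mir204 was not tested.

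Of the 232 miRNAs tested, 33 were called higher and 13 lower in WT cauda than in WT caput fluid, and 26 higher and 15 lower in KO. Called or not, 165 had a log2 fold change above 0 in WT and 116 in KO. Mir8114 was the 1 miRNA with a lower log2 fold change than Mir204 in each of these comparisons (-4.40 in WT and -3.79 in KO). By rank of its count among the miRNAs of a library, Mir204 held places 21 to 26 in WT caput and 76 to 94 in WT cauda fluid, and places 11 to 18 in KO caput and 62 to 83 in KO cauda fluid. Corpus fluid lay between in rank, at places 55 to 69 in WT and 31 to 36 in KO.

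The 5 miRNAs most like Mir204, by Pearson's r of log2 CPM over the 18 fluid libraries, were Mir148a (r = 0.90), Mir8114 (0.89), Mir146b (0.86), Mir135a-1 (0.85) and Mirlet7e (0.85), where the median r of the 231 other miRNAs was 0.22. The likeness is a description over libraries that include the corpus libraries used to choose Mir204 and that share depth and segment. Their mature strands are shown because the seeds differ from that of miR-204-5p in each case (capitals, bases 2 to 8).
miR-148a-3p: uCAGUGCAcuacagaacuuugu
miR-8114: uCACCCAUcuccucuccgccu
miR-146b-5p: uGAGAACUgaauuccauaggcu
miR-135a-5p: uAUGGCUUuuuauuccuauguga
let-7e-5p: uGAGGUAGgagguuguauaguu

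Each of these 5 was lower in cauda than in caput fluid in both genotypes. They were chosen for likeness to Mir204 over the same libraries, so their fall and their corpus levels are a description without a test. In WT the log2 fold changes were -1.20 ± 0.38 (SE) for Mir148a and -1.85 ± 0.53 for Mir146b. They were -1.63 ± 0.43 for Mir135a-1 and -2.12 ± 0.56 for Mirlet7e, beside that of Mir8114 above (SE 0.64). In KO they were -1.22 for Mir148a, -2.86 for Mir146b, -3.18 for Mir135a-1 and -1.66 for Mirlet7e, again beside that of Mir8114. In corpus fluid their mean level in KO against WT was 123 ± 49.8 and 40.5 ± 6.58 CPM for Mir148a, 2.62 ± 1.71 and 0.646 ± 0.370 CPM for Mir8114, 13.7 ± 2.15 and 5.01 ± 2.13 CPM for Mir135a-1, 2.75 ± 0.760 and 1.16 ± 0.622 CPM for Mir146b, and 2.68 ± 1.06 and 1.27 ± 0.881 CPM for Mirlet7e (SD, n = 3). Mir135a-1 and Mir135a-2 give the same mature 5p strand, so their reads cannot be told apart.

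**Figure D4:**
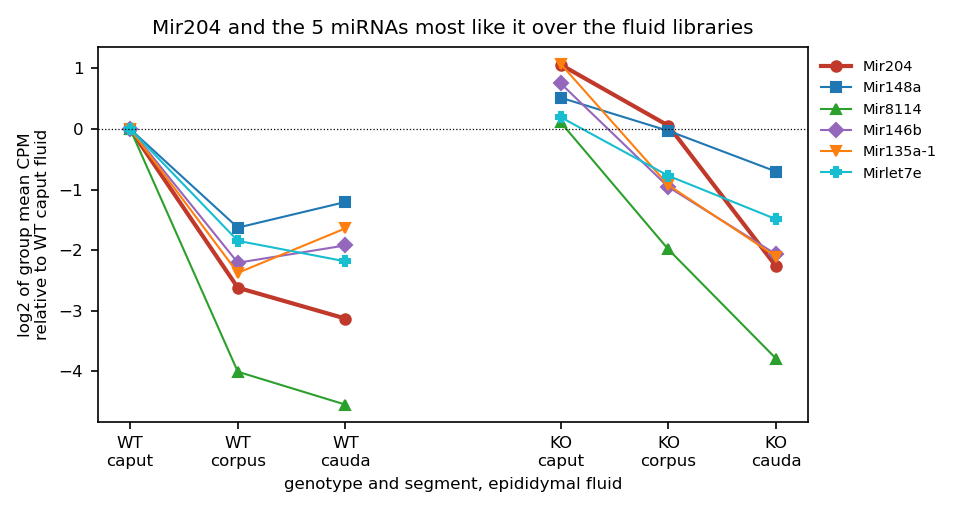
Log2 of the group mean CPM relative to WT caput fluid for Mir204 (thick line) and the 5 miRNAs most like it over the 18 fluid libraries, by genotype and segment. Points are means of 3 libraries without error bars. In WT the Mir204 mean went from 38.2 CPM in the caput to 6.22 in the corpus and 4.37 in the cauda, and in KO from 79.7 to 39.7 and 7.95 CPM.

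In epididymis tissue, Mir204 was a low-count miRNA in the caput and corpus and close to undetected in the cauda. WT caput tissue had counts of 54, 11 and 338 (0.504, 0.134 and 0.938 CPM), and KO caput tissue had counts of 49, 44 and 291 (0.425, 0.475 and 0.927 CPM). Replicate 3 was highest in both genotypes, and these 2 libraries were also the deepest, with 249732714 and 209912888 counts. The genotypes overlapped fully in the caput.

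WT corpus tissue had counts of 14, 22 and 128 (0.251, 0.511 and 0.567 CPM), and KO corpus tissue had counts of 24 and 22 (0.345 and 0.243 CPM). The genotypes overlapped in the corpus as well. WT cauda tissue had counts of 1, 1 and 8 (0.0332, 0.0382 and 0.0347 CPM), and KO cauda tissue had 0 counts in all 3 libraries, where 3 counts would stand for 0.198, 0.110 and 0.0424 CPM. Replicates 1 and 2 of WT cauda tissue lie under the 3-count limit of their own libraries (0.0996 and 0.115 CPM). By mean level the order was KO caput (0.609 ± 0.276 CPM, SD, n = 3), WT caput (0.525 ± 0.402, n = 3), WT corpus (0.443 ± 0.169, n = 3), KO corpus (0.294 ± 0.0716, n = 2), WT cauda (0.0354 ± 0.00255, n = 3) and KO cauda (0). The first 4 groups overlapped with their neighbours.

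From WT caput to WT cauda tissue Mir204 fell 15.005-fold (log2 fold change -3.91 ± 0.75, SE, adjusted p = 0.00124), where 23% of the 3488 RNAs tested were called and 18.6% had all cauda libraries below all caput libraries, as Mir204 did. From WT corpus to WT cauda tissue it fell 12.5-fold (-3.64 ± 0.76, adjusted p = 0.0168), where 3.41% of the RNAs were called and 9.49% had all cauda libraries below all corpus libraries. The latter call was lost when cauda replicate 2, cauda replicate 3 or corpus replicate 3 was left out (adjusted p = 0.0544, 0.0876 and 0.0649), with log2 fold changes of -3.55, -3.58 and -3.38. Between WT caput and WT corpus tissue Mir204 did not pass the test (-0.27 ± 0.54, 95% interval -1.42 to 0.88, adjusted p = 0.823), where 11.8% of the RNAs were called. A block for the replicate number kept these calls of Mir204 and raised the calls over all RNAs from 113 higher and 6 lower to 235 and 55 between cauda and corpus, and from 314 higher and 98 lower to 529 and 137 between corpus and caput. In KO, the summed floor of 3 counts over the 3 cauda libraries was set against the mean of each other segment, taken without its spread. On that basis Mir204 was at least 22.99-fold lower in cauda than in caput tissue and at least 11.1-fold lower than in corpus tissue. These bounds were not tested. EdgeR's test against no change called Mir204 lower in KO cauda than in KO caput tissue (adjusted p = 0.000324). In that test 25.7% of RNAs were called, and 19.6% were without overlap in this direction. KO cauda against KO corpus tissue was not tested.

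Mir375 was the 1 miRNA of 171 others with a lower log2 fold change than Mir204 from WT caput to WT cauda tissue (-7.57 ± 0.80, adjusted p = 9.86e-06). In the same comparison the smooth muscle miRNA Mir143 rose (2.53 ± 0.36, adjusted p = 7.14e-05). Of the 172 miRNAs tested, 36 were called higher and 7 lower in the cauda, and 112 had a log2 fold change above 0. The 10 epithelial miRNAs summed to 9.05 to 27.4 CPM in WT caput and to 9.89 to 18.2 CPM in WT cauda tissue, and 0 of 10 were called (median log2 fold change -0.46). In KO they summed to 13.9 to 26.4 CPM in caput and to 8.99 to 14.7 CPM in cauda tissue, with 2 of 10 called lower from caput to cauda (median -1.02). Of the other lists, 3 of 6 germ line and multiciliated miRNAs were called higher in WT cauda tissue and 5 of 6 in KO, and 2 of 4 striated muscle, 2 of 2 smooth muscle and 1 of 2 blood miRNAs were called higher in each genotype. Of the 3 neural and neuroendocrine miRNAs, Mir375 was called lower in each genotype and 1 was called higher in WT. The part of tissue make-up in the fall of Mir204 was not tested, and fewer cells of a type and less RNA per cell cannot be told apart in whole tissue.

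KO against WT, Mir204 was not called in any tissue segment. The log2 fold change was 0.19 ± 0.52 (SE) in the caput (95% interval -0.93 to 1.31, adjusted p = 0.9996) and -0.62 ± 0.64 in the corpus (-1.98 to 0.75, adjusted p = 0.880), and edgeR called 0% of the RNAs in each, with 11 higher and 23 lower in the caput and 27 higher and 252 lower in the corpus at an unadjusted p under 0.05. DESeq2 called 0 in the caput and 23 lower in the corpus. The sign in the caput turned when KO replicate 3 or WT replicate 2 was left out (-0.26 and -0.24). In the cauda, 10 counts in WT stood against 0 in KO. The difference did not pass the test, with a 95% interval of -10.1 to 0.03 on the log2 scale that includes no change (adjusted p = 0.335, unadjusted p = 0.0513, 0.86% of RNAs called). All KO libraries were below all WT libraries for 10.1% of RNAs. A block for the replicate number moved the calls over all RNAs of cauda tissue from 1 higher and 29 lower to 202 higher and 124 lower, and Mir204 was still not called (adjusted p = 0.170). The interaction term for the KO effect in cauda against caput tissue was -5.24 ± 2.45 (SE) on the log2 scale, with a 95% interval of -10.5 to -0.003. This value rests on KO cauda libraries at 0 and did not pass edgeR's test either (adjusted p = 0.813, unadjusted p = 0.0499). In that test 0% of RNAs were called, with 83 higher and 128 lower at an unadjusted p under 0.05, and DESeq2 called 0. With the replicate block 16 were called lower, and Mir204 had an adjusted p of 0.333.

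The miRNA class was also compared in corpus tissue, beside its values in corpus fluid. The median log2 fold change of the 172 miRNAs tested was -1.02 in KO against WT corpus tissue, where 20 were above 0, and 1.07 for the 232 tested in corpus fluid, where 208 were above 0. Corpus tissue had only 2 KO libraries beside 3 of WT. There 0 of the 172 miRNAs were called by edgeR, with 0 higher and 55 lower at an unadjusted p under 0.05. With TMM factors from RNAs other than tRNA and rRNA fragments the medians were -0.83 in tissue and 0.22 in fluid, and with miRNA counts as the library size they were -0.48 and 0.02. In tissue Mir204 stood above 125 and below 46 of the other miRNAs. Tissue and fluid were made with different library methods and tested in separate tables, so the difference between the 2 was not tested.

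Over the 17 tissue libraries, the 5 miRNAs most like Mir204 were Mir320 (r = 0.90), Mir375 (0.90), Mir103-1 (0.78), Mir148a (0.78) and Mir103-2 (0.76), where the median r of the 171 others was 0.00. The 2 Mir103 genes give the same mature 3p strand and are not separate measurements. Mir148a was thus among the 5 most like Mir204 in both tables. Mir375 had a mean of 1.47 ± 0.789 CPM in WT caput, 0.328 ± 0.132 in WT corpus and 0.00290 ± 0.00502 in WT cauda tissue (SD, n = 3). Mir148a had 27.1 ± 20.7, 21.6 ± 5.12 and 7.85 ± 4.78 CPM in the same order. Its log2 fold change from WT caput to WT cauda tissue was -1.79 ± 0.53 (SE). These levels are a description, because Mir375 and Mir148a were picked here for likeness to Mir204 over the same libraries.

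Mir211 was near the limit of detection wherever it was listed. Its counts were 5, 0 and 8 in WT caput tissue, 2, 0 and 5 in KO caput tissue, 0, 0 and 4 in WT corpus tissue and 0 and 1 in KO corpus tissue. In the cauda it had 0 counts in all WT libraries and 0, 0 and 1 in KO. Its 26 counts fell in 7 of the 17 tissue libraries, with 13 in WT and 7 in KO caput tissue. A read within the first 16 bases of the 5p strand would count at both genes. Reads of Mir204 could therefore be among these counts, which was not tested. Mir204 had 1007 counts in 14 of 17 libraries, 38.7 times as many. Per base of hairpin this is 14.8 against 0.245 counts, or 60.4 times as many, although the 5p strands of both genes have the same length of 22 bases. Mir211 did not pass the filter on low counts and was not tested, so neither its course along the duct nor a genotype difference could be measured at this depth. It was not among the RNAs listed for fluid and sperm, where every listed RNA other than a tRNA entry reached 5 counts in at least 1 library.

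In cauda sperm Mir204 was uneven within genotypes. WT sperm had counts of 22, 0, 1 and 35 (0.344, 0, 0.529 and 12.6 CPM), and KO sperm had counts of 44, 44, 54 and 1 (1.56, 0.925, 0.813 and 0.343 CPM). WT replicate 4 lay above every other sperm library, and the genotypes overlapped. WT replicates 2 and 3 held 1119 and 1181 miRNA counts in all, and 3 counts would stand for 1.17 and 1.59 CPM there, so a level like that of most KO libraries was not detectable in them. KO replicate 4 had 4045 miRNA counts and 3 counts would stand for 1.03 CPM.

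The log2 fold change of KO against WT sperm was -1.64 ± 1.04 (SE), with a 95% interval of -3.89 to 0.61 (adjusted p = 0.484), and it was 1.64 ± 0.67 (adjusted p = 0.107) without WT replicate 4. The sign in sperm thus depended on that 1 library. No RNA was called in sperm by edgeR (0%), with 199 higher and 235 lower at an unadjusted p under 0.05, whereas DESeq2 called 5 higher and 117 lower. The median log2 fold change of the 217 miRNAs tested in sperm was 0.28, and all 216 others stood above Mir204.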

How the data were processed

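The deposited values were whole-number read counts per RNA, in 1 table each for tissue (17 libraries), fluid (18) and sperm (8). The authors treated RNA with PNK, trimmed adapters and molecular tags with cutadapt and counted reads with a modified tRAX pipeline (bowtie2, mm10, Ensembl genes). The labels also name UMI-tools. A read with several equally good matches was kept at each, so gene copies with the same mature strand share reads. No removal of duplicate molecules was stated for the tables, so the floor for a count of 0 covers counting error only, whereas the 95% intervals of log2 fold changes are from the fits over libraries.

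Each table was analysed on its own with edgeR 4.0.16 in R 4.3.3 (filterByExpr by group, minimum count 10, minimum total count 15, TMM scaling, quasi-likelihood test over all groups), with Benjamini-Hochberg adjustment of p-values across the 3488 tissue, 2023 fluid or 2480 sperm RNAs. Calls needed an adjusted p under 0.05 together with a log2 fold change beyond 1 in size. Every adjusted p in the report is from this test unless another fit is named beside it (a replicate block, 2 groups alone or a library left out). CPM used effective library sizes, log2 CPM a prior count of 2, and a count of 0 allows up to 3 counts. The SE of a log2 fold change is its size over the root of the F statistic. Groups and replicate numbers came from the sample titles. All 46 pairs of replicates differed beyond sampling noise. The study calls the tissue libraries biological replicates and does not say how many animals gave each, so P-values measure the spread between these libraries, and between pools in fluid and sperm.

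Mir204 and Mir211 were named in every library, the 5 miRNAs most correlated with Mir204 in tissue and in fluid, up to 5 called miRNAs with the smallest p per comparison, and the most abundant member of each cell type list. The members and lists were chosen with earlier results of these data known. Alternatives were DESeq2 1.42.0 (defaults or its size factors alone), library size alone, TMM from RNAs other than tRNA and rRNA entries, miRNA counts as the library size, no filter, the 2 groups alone, a replicate block and leaving out each library. Replicate numbers are shared across groups in the titles. Deviations from group means correlated above 0.1 in every same-numbered pair for KO and WT cauda tissue (r = 0.272 to 0.596), for the WT tissue segments (0.289 to 0.670) and for KO caput and cauda tissue (0.175 to 0.602). In the other comparisons not every pair was above 0.1. KO and WT caput tissue were among these, with r from 0.029 to 0.723 and a mean of 0.423 over 3 pairs. The fits were tested on simulated data. Sequence and figure steps used python 3.11.15, pandas 2.3.3 and matplotlib 3.10.9.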

Additional observations from a re-analysis of the deposited data

Results flagged for a closer look

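In WT sperm, replicate 4 held 12.6 CPM of Mir204 while the other 3 libraries held 0, 0.344 and 0.529 CPM. The gap from this library to the next, divided by the range of the group, was 0.958, above Dixon's 95% limit for 4 samples. Chance flags about 1 in 20 such groups if their values are normal, and 2 groups of 4 libraries were examined. The flag holds for linear CPM and was not computed on log2 CPM, where replicates 1 to 4 were at -1.26, -3.76, -0.73 and 3.67.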

How the results depend on the processing

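The falls of Mir204 from caput to cauda, in fluid and tissue and in both genotypes, kept their direction and their call under all settings and with each library left out. For KO against WT in caput and cauda fluid and in cauda and corpus tissue, Mir204 kept its direction and stayed uncalled, with no adjusted p from DESeq2 in cauda tissue (log2 fold change 0.57 to 1.29 and 0.52 to 1.04 in caput and cauda fluid over the settings). In corpus fluid its description moved to 1.63 with miRNA counts as the library size and to 1.81 with TMM from RNAs other than tRNA and rRNA entries, which shifted the median of all RNAs by -1.001 and -0.88 on the log2 scale and the calls from 273 higher and 126 lower to 72 and 416 and to 144 and 526. Relative to the median miRNA, Mir204 lay between 1.59 and 1.71 under all settings. Scaling shifts elsewhere were between -0.75 and 0.55.

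The KO effect in cauda minus caput fluid turned to 0.034 with TMM from other RNAs and ran from -0.60 to 0.048 with 1 library left out. KO against WT in sperm turned to 0.32 with the replicate block and ran from -2.23 to 1.64 with 1 library left out. In tissue, KO against WT caput ran from -0.26 to 0.83, WT corpus against WT caput from -0.69 to 0.42, and WT cauda against WT corpus from -3.91 to -3.38, with 1 library left out. The replicate block changed no call of Mir204. It gave -4.01 (adjusted p = 0.000351) for WT cauda against WT corpus tissue and -4.96 (adjusted p = 0.170) for KO against WT cauda tissue, the latter a fitted value against libraries at 0. The causes were not tested.

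DESeq2 called more RNAs than edgeR, 69 higher and 105 lower against 1 and 29 in cauda tissue, and 28 higher and 13 lower against 0 for the KO effect in cauda against caput fluid. With caput fluid fitted alone, 31 RNAs were called higher and 0 lower, and Mir204 was not among them (adjusted p of 0.0573 or more under all settings). Mir211 did not pass the filter, so it had no tested value to compare between settings. Counts of 0 to 8 in cauda tissue and of 0 and 1 in 3 sperm libraries are the depth limit for Mir204.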

Other observations

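Other miRNAs followed the duct in the opposite direction to Mir204. Mir196b, which lies in a Hox gene cluster, rose from WT caput to WT cauda tissue (log2 fold change 5.95 ± 0.69, SE, adjusted p = 1.76e-05 in edgeR's quasi-likelihood test) and from KO caput to KO cauda tissue (5.35 ± 0.68, adjusted p = 4.27e-05). It also rose from WT caput to WT corpus tissue (5.58 ± 0.68, adjusted p = 0.00134), as did its relative Mir196a-2 (3.79 ± 0.66, adjusted p = 0.00207), a step over which Mir204 was not called. In fluid, the germ line and multiciliated cell miRNA Mir34b rose from caput to cauda in WT (3.998 ± 0.49, adjusted p = 1.30e-05) and in KO (2.86 ± 0.45, adjusted p = 0.000356). Of the 14 miRNAs of the germ line and multiciliated list tested in fluid, 11 were called higher and 0 lower in WT, and 12 higher and 0 lower in KO. Of all 2023 RNAs, 196 and 232 were called higher, and 25.1% and 26% were called in either direction.

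In corpus fluid, given as a description because Mir204 was chosen there, the miRNAs next to Mir204 by the named rule were Mir301 (log2 fold change 3.41 ± 0.67, SE), Mir26b (2.08 ± 0.43), Mir30c-1 (1.86 ± 0.39) and Mir30c-2 (1.86 ± 0.39), of which the Mir30c pair gives the same mature 5p strand.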
